A study of Mus musculus with 18 samples.

Results

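Transient GATA6-only active enhancers are stretches of the mouse genome that GATA6 occupied early and then left, that carried the histone marks of an active enhancer in embryonic stem (ES) cells, and at which no binding of pluripotency transcription factors (PTFs) or of SOX17 was called. Of 42403 GATA6 binding regions deposited for the series, 882 (2.08%) met these criteria. They were selected on 4 classes given by the authors, namely the Transient class of GATA6 binding, the absence of OCT4, SOX2 and ESRRB peaks at every time analysed, the absence of SOX17 peaks and the active enhancer state. GATA6 signal over time, the peaks of the other factors and the histone marks therefore chose the regions, are no findings here, and are not compared. The series itself holds 18 MNase-seq libraries in 6 groups of 3, untreated at d0 or after 8, 16, 24, 48 or 96 h of doxycycline (Dox). All come from the KH2 ES line (C57BL/6 x 129/Sv), whose cells carry a Dox-inducible, HA-tagged Gata6 transgene in addition to the endogenous gene and grow with LIF on feeder cells. No library has a value in the columns analysed, so depth is unknown, GATA6 regions are the units throughout, and neighbouring regions are not independent of each other. Every p-value below thus describes the spread between regions, not between cultures.

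GATA6 is the zinc finger transcription factor that directs the inner cell mass towards primitive endoderm (PrE), and it recognises DNA around the letters GATA. In ES cells, OCT4 and SOX2 bind side by side to a composite motif and ESRRB, an orphan nuclear receptor, binds an extended nuclear receptor site. These factors keep pluripotency enhancers active, whereas SOX17, a SOX factor of the endoderm, joins GATA6 as PrE forms. Active enhancers carry H3K4me1 and H3K27ac, while poised enhancers carry H3K4me1 with the repressive mark H3K27me3.

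The sequences under the summits, the bases with the highest GATA6 signal, show the kinds of sites found among the 882 enhancers. Each is the summit window, which reaches 100 bp to each side of the summit, written on the plus strand of GRCm38 and named after the gene concerned. In the set that follows, capitals mark every GATA6 motif. The Golm1 member tied for the second highest GATA6 score, and the Spred3 member is accessible. The Tdgf1, Lefty2 and Pou5f1 members are each the member nearest to the pluripotency or epiblast gene that names it.
Golm1, chr13:59679989-59680189: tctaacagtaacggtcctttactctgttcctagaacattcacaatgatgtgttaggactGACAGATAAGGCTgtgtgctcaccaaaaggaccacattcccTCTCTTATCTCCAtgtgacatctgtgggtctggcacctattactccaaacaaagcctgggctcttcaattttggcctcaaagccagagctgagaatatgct
Spred3, chr7:29162653-29162853: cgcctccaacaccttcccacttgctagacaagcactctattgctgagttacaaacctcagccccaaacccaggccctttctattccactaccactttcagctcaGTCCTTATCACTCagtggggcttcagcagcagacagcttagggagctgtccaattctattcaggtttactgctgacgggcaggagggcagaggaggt
Tdgf1, chr9:110949170-110949370: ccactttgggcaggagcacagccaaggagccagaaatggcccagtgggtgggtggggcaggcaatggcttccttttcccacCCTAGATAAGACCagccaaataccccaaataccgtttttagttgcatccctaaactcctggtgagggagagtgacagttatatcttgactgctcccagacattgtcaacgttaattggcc
Lefty2, chr1:180911699-180911899: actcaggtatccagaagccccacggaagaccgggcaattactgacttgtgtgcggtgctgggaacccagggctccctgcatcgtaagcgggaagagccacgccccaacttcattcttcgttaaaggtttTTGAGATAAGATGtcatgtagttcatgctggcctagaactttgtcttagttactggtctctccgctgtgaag
Pou5f1, chr17:35501427-35501627: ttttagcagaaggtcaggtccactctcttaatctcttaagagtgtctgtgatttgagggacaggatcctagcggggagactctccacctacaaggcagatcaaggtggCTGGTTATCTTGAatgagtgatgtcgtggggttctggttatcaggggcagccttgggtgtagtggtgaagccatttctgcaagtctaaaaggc

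Further windows show exceptions. The Nr5a2 member was shown for its strong OCT4:SOX2 motif, marked in capitals, in a region without a called OCT4 or SOX2 peak.
Nr5a2, chr1:136957607-136957807: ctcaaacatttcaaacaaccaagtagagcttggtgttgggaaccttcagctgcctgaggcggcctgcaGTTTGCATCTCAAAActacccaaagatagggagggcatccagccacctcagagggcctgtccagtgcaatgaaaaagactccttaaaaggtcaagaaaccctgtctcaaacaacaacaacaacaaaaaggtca
In the Fnbp1 member the capitals mark a pair of overlapping ESRRB motifs near the summit.
Fnbp1, chr2:31135692-31135892: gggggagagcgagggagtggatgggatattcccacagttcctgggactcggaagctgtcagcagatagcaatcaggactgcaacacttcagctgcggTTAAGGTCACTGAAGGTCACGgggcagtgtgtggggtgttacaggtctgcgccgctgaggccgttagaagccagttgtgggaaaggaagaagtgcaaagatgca
The Ube2l6 and Ctbp2 members stand for regions whose GATA6 binding was called lower and higher, respectively, after Oct4 knockdown, and their capitals mark the GATA6 motif.
Ube2l6, chr2:84806566-84806766: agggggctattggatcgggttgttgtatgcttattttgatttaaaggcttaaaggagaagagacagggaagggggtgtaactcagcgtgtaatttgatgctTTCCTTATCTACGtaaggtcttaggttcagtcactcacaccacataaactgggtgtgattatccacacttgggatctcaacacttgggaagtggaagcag
Ctbp2, chr7:133090472-133090672: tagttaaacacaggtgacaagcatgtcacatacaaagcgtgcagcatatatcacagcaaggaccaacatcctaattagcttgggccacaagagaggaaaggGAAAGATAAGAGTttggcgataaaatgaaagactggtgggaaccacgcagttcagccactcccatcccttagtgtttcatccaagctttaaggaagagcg
The member inside Esrrb had no GATA6 motif, and the capitals mark its SOX17 motif.
Esrrb, chr12:86476069-86476269: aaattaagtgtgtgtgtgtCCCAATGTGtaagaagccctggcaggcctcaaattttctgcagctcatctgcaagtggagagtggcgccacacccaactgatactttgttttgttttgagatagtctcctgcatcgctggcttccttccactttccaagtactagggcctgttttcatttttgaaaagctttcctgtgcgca

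Most of the 882 enhancers held a GATA6 motif, and most often the canonical form. A motif here is a sequence that the authors' scan with a JASPAR matrix scored above its cut-off. At least 1 GATA6 motif lay in 779 regions (88.3%, 95% Wilson interval 86.0 to 90.3), and in 38052 of all 42403 regions. Of the 882 enhancers, 304 held 1 motif, 228 held 2, 247 held 3 or more and 103 held none. The 6 bases at the core of the best motif read GATAAG in 366 of 766 regions with a full-length motif (47.8%), GATAAC in 104, GATAAA in 71 and GATAGG in 44. Among all 42403 regions the GATAAG core made up 52.6%, and among PTF-bound active enhancers 35.6%.

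The motif was concentrated at the summit. A GATA6 motif lay in 74.1% of the summit windows of the 882 enhancers (71.2 to 76.9), against 31.3% of 1650 control windows placed 3 kb away from the same summits (29.1 to 33.6). The shorter word AGATAA, searched on both strands and contained in the consensus of the GATA6 matrix, was in 45.9% of summit windows and 9.45% of control windows. For all regions the GATA6 motif shares were 77.1% and 33.5%, and the AGATAA shares were 54.3% and 11.5%. Control windows were not compared by a test.

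**Figure D1:**
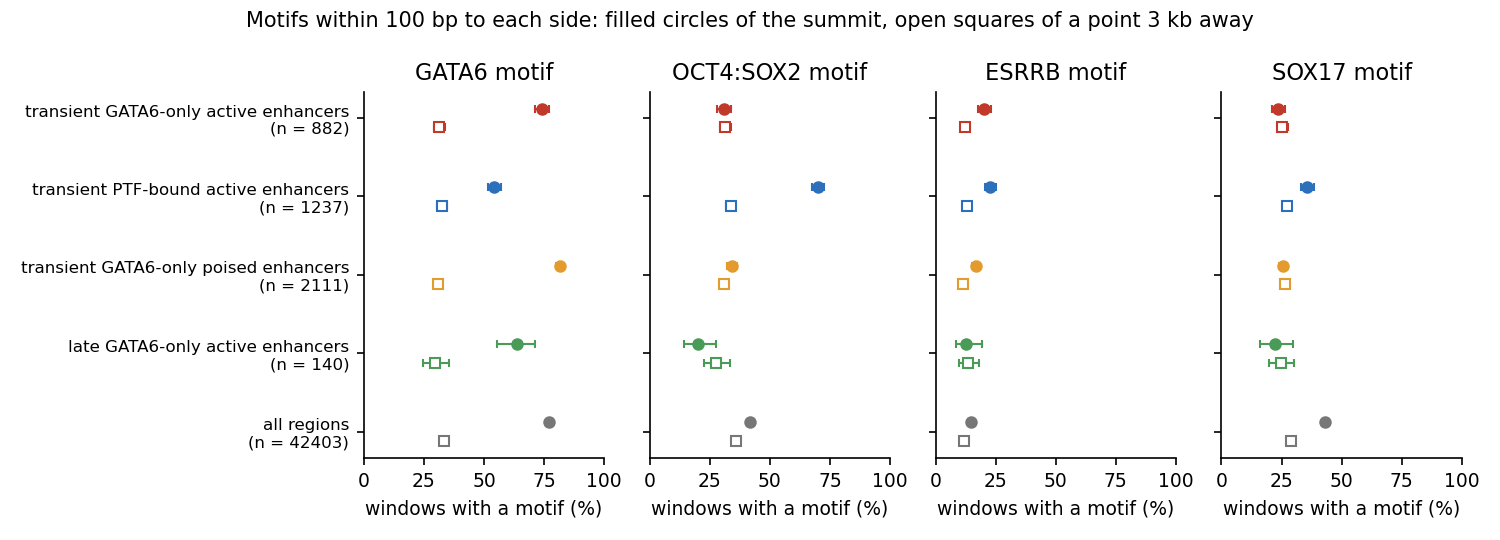
Share of windows of 100 bp to each side with a GATA6, OCT4:SOX2, ESRRB or SOX17 motif (x axis, percent) in the 882 enhancers, the compared groups and all regions; filled circles are summit windows, open squares are windows 3 kb away and bars are 95% Wilson intervals. In the 882 enhancers the GATA6 share at the summit (74.1%) lies far above its control (31.3%), the ESRRB share (20.2%) lies above its control (12.4%), and the OCT4:SOX2 and SOX17 shares overlap theirs.

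Comparisons were made with 3 groups that each differ from the 882 enhancers in 1 class. Transient PTF-bound active enhancers (n = 1237) differ by OCT4, SOX2 or ESRRB binding at d0, transient GATA6-only poised enhancers (n = 2111) by the histone state, and late GATA6-only active enhancers (n = 140) by the timing of GATA6. Shares were compared by two-sided Fisher's exact tests and means by two-sided permutation tests over regions, and the p-values of all 34 tests were adjusted together. Widths averaged 572 bp in the 882 enhancers (SD 243), 767 bp in PTF-bound, 485 bp in poised and 420 bp in late enhancers. A wider region has more room for a motif, so comparisons within bins of width are given where they change a call. The bins were cut at quantiles of the widths of both groups together, and widths still vary within a bin.

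GATA6 motifs were more frequent in the 882 enhancers than in the PTF-bound group. A motif was present in 88.3% of the 882 against 82.3% of PTF-bound enhancers, a difference of 6.03 percentage points (95% interval 2.97 to 8.99, adjusted p = 0.000332). Late active enhancers held a motif in 75%, which is 13.3 points lower (6.49 to 21.3 points, adjusted p = 0.000218). In poised enhancers the share was 90.0%, and the difference of -1.64 points did not pass the test (-4.22 to 0.74, adjusted p = 0.241). The difference from the PTF-bound group was 0.84 points among regions of moderate accessibility alone (adjusted p = 0.671), and that from the late group was 5.71 points within bins of width (adjusted p = 0.157). Against poised enhancers a lower share appeared in the summit windows (by -7.33 points, adjusted p = 2.86e-05) and within bins of width (by -4.90 points, adjusted p = 5.56e-05), whereas the difference turned to 1.46 points among moderate regions (adjusted p = 0.411) and 2.10 points among closed regions (adjusted p = 1).

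The quality of the best GATA6 motif lay between those of the compared groups. Its score is a log-odds value that measures the match to the matrix. It averaged 10.16 in the 779 regions with a motif (SD 2.32, against 10.47 over all regions with a motif). The mean was 9.56 in PTF-bound enhancers, a difference of 0.60 (SE 0.11), and 9.02 in late enhancers, a difference of 1.14 (SE 0.21). Poised enhancers scored higher, at 10.71, a difference of -0.55 (SE 0.10). All 3 differences had an adjusted permutation p of 3.09e-05, which rests on the smallest p that 100000 relabellings can give (1e-05). Among moderate regions alone the difference from poised enhancers shrank to -0.21 (adjusted p = 0.0976) and among closed regions to -0.36 (adjusted p = 0.446).

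The strongest motifs came close to the top of the matrix, whose best possible match scores 15.21. The highest score, 15.09, belonged to GACAGATAAGAAA in an annotated exon at Ksr1 (chr11:79030693-79031160), the gene of a scaffold for the RAF-MEK-ERK cascade. The sequence TGGAGATAAGAGA, at 15.00, occurred near Sfn (chr4:133595375-133595898), the gene of 14-3-3 sigma, and near Golm1 (chr13:59679886-59680378), which encodes a Golgi membrane protein. CACAGATAAGAAA followed with 14.97 in an intron of Myh9 (chr15:77816187-77816780), which encodes a nonmuscle myosin heavy chain. TAGAGATAAGAGA scored 14.93 between genes next to Platr17 (chr17:33898494-33899012). All 5 shared the letters AGATAAG, and 2 of the 5, the Golm1 and Platr17 members, were closed at d0.

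Repeated motifs were found in wide regions. Counting by region, the most GATA6 motifs were 11, in an intron of Ankrd29. A region of 1648 bp in an intron of Rbpj (chr5:53566058-53567705), which encodes the DNA-binding effector of Notch signalling, held 8 motifs. An intergenic region of 1303 bp near Nufip1 (chr14:76145213-76146515) also held 8. Introns of Bcar3 and Macf1 held regions with 7 motifs each. Among the regions without any, the widest was 753 bp long and lay near Klhdc8a (chr1:132264232-132264984), followed by 732 bp near Cct8l1 and 707 bp in an intron of Vwf, the gene of von Willebrand factor.

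The best GATA6 motif lay close to the summit. Its start was a median of 44 bp away (quartiles 19.5 and 118.5 bp), and within 50 bp in 429 of 779 regions (55.1%). In PTF-bound enhancers the median was 109 bp and 31.4% lay within 50 bp, which is 23.6 points less (95% interval 19.1 to 28.1, adjusted p = 1.05e-22). More than 200 bp separated motif and summit in 13.5% of the 882 enhancers with a motif and in 32.0% of PTF-bound ones. Poised enhancers had more motifs within 50 bp, at 61.5%, a difference of -6.38 points (-10.5 to -2.28, adjusted p = 0.00432). That difference was -3.44 points within bins of width (adjusted p = 0.145) and -1.55 points in closed regions alone (adjusted p = 0.884). For late enhancers the share was 51.4%, and the difference of 3.64 points did not pass the test (-6.33 to 13.7, adjusted p = 0.583). Its direction turned at the other distances tried, to -3.22 points within 100 bp and -2.06 points within 25 bp (adjusted p = 0.616 and 0.701).

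**Figure D2:**
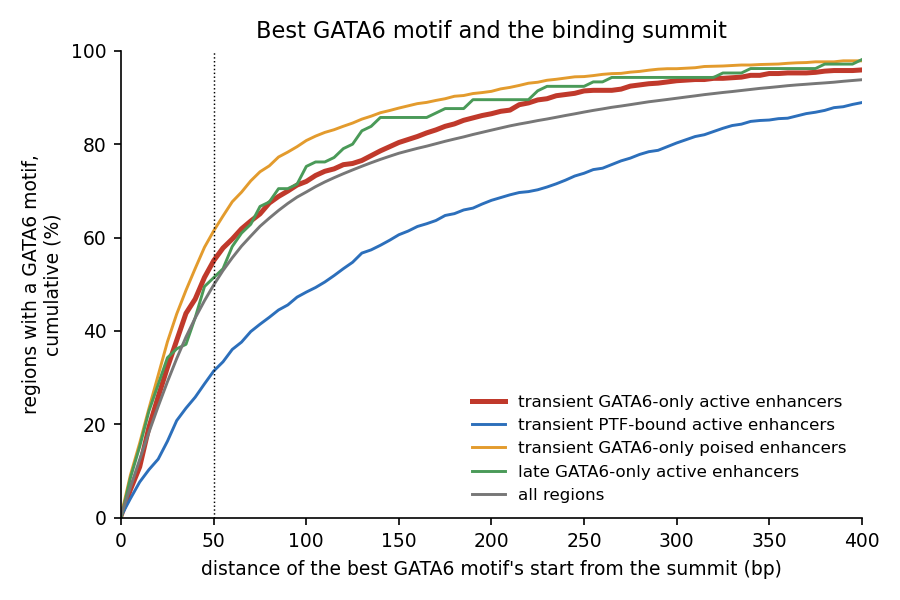
Cumulative share of regions with a GATA6 motif (y axis, percent) whose best motif starts within a given distance of the summit (x axis, bp), for the 882 enhancers, the compared groups and all regions. At the dotted line of 50 bp the 882 enhancers reach 55.1%, PTF-bound active enhancers 31.4% and poised enhancers 61.5%.

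The members differed among themselves by accessibility at d0, which the authors classed from short ATAC-seq fragments of untreated cells. Of the 882 enhancers, 734 were moderate (83.2%), 112 accessible (12.7%) and 36 closed (4.08%). Accessible regions made up 43.2% of PTF-bound, 1.99% of poised and 17.9% of late enhancers. Accessibility belongs to the same chromatin state as the marks that chose the regions, so these shares are a description.

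GATA6 motifs were weaker where the chromatin was already open. The best score averaged 8.95 in accessible members (SD 1.92, n = 87 with a motif), 10.29 in moderate (SD 2.33, n = 657) and 10.82 in closed members (SD 2.33, n = 35). Accessible members differed from closed ones by -1.87 on average (SE 0.44, permutation test, adjusted p = 8.50e-05), and the order is not independent of what is known of all Transient regions, which include these. Moderate members scored -0.53 relative to closed members (adjusted p = 0.243). A GATA6 motif was present in 77.7% of accessible (69.1 to 84.4), 89.5% of moderate (87.1 to 91.5) and 97.2% of closed members (85.8 to 99.5). The share of best motifs within 50 bp of the summit was 55.2%, 54.6% and 62.9%, with overlapping intervals. Mean GC content moved with the classes, at 53.3% in accessible, 50.1% in moderate and 45.7% in closed members. Mean width did not follow their order, at 463, 593 and 483 bp. The part of either in the score difference was not tested.

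**Figure D3:**
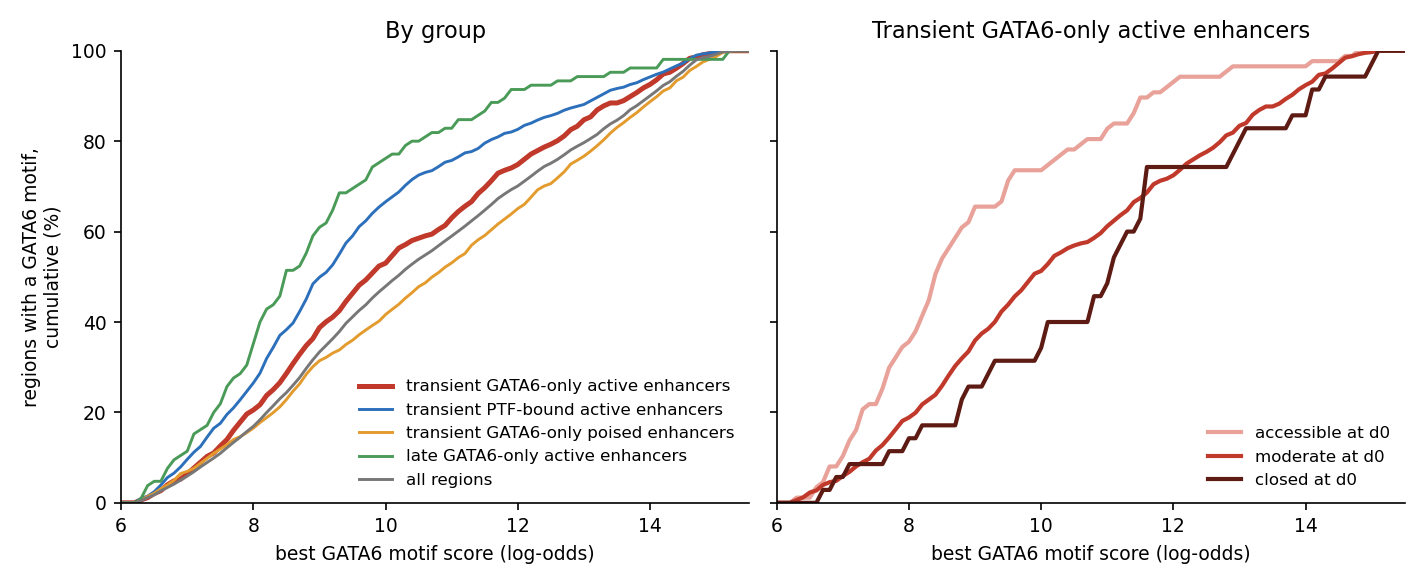
Cumulative distribution (y axis, percent) of the best GATA6 motif score (x axis, log-odds) in the 882 enhancers, the compared groups and all regions on the left, and in accessible, moderate and closed members on the right. The curve of the 882 enhancers (mean 10.16) runs between PTF-bound (9.56) and poised enhancers (10.71), and accessible members (8.95) lie left of closed ones (10.82).

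Individual members show the range. The accessible Spred3 member (chr7:29162501-29162943) had a motif of score 10.32 that started 4 bp from the summit, and Spred3 encodes an inhibitor of RAS signalling. A second accessible member, in an intron of Ankrd66 (chr17:43534769-43535526), had the variant core GATTAG with a score of 9.45 at 7 bp. Moderate members near Cog6 (chr3:52955291-52955810) and Anxa11 (chr14:25839956-25840340) had motifs that started exactly at the summit, with scores of 8.93 and 7.69. The closed Golm1 member joined both features, a score of 15.00 and a start at the summit. A closed member in an intron of Trim71 (chr9:114537616-114537936) had the same GATTAG core as the Ankrd66 member, with a score of 9.30 at 2 bp.

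OCT4:SOX2 motifs were much rarer and weaker in the 882 enhancers than in PTF-bound ones. The rule did not use sequence, but OCT4, SOX2 or ESRRB peaks separate the groups, so this contrast is not independent of it. Such motifs were present in 30302 of all 42403 regions. The shares were 60.3% of the 882 regions and 92.8% of PTF-bound enhancers, a difference of -32.5 points (-36.0 to -28.9, adjusted p = 1.46e-73). The best score averaged 8.26 (SD 2.37, n = 532) against 10.87, a difference of -2.62 (SE 0.14, permutation test, adjusted p = 3.09e-05). In the summit windows the share was 30.8% (27.9 to 34.0), and in the control windows 31.5% (29.3 to 33.8). PTF-bound enhancers held the motif in 70.2% of summit windows and 33.7% of control windows. The octamer ATGCAAAT, part of the consensus of the composite matrix, was in 0.79% of the summit windows of the 882 enhancers, 7.76% of PTF-bound and 3.0% of all regions.

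Against poised enhancers neither the share nor the score of this motif passed the test. Their share was 57.4%, a difference of 2.95 points (-0.93 to 6.77, adjusted p = 0.187), and their mean score 8.30, a difference of -0.05 (SE 0.13, permutation test, adjusted p = 0.729). Among moderate regions alone the difference in share was 5.26 points (adjusted p = 0.0298), but it was negative in summit windows (-3.31 points, adjusted p = 0.106), in windows of 50 bp to each side (-3.25, adjusted p = 0.0571), in closed regions (-3.27, adjusted p = 0.753) and within bins of width (-1.86, adjusted p = 0.397). The difference in score was -0.61 in windows of 50 bp to each side and 0.090 among moderate regions (adjusted p = 0.0259 and 0.564). Late enhancers had fewer motifs, 43.6%, a difference of 16.7 points (7.85 to 25.3, adjusted p = 0.000499), and a lower mean score, 7.38 (difference 0.87, SE 0.28, permutation test, adjusted p = 0.0103). The difference in score lost the threshold in summit windows (0.77, adjusted p = 0.139) and with the mean over all motifs of a region (0.37, adjusted p = 0.169). Within bins of width the difference in share from late enhancers was 7.50 points (adjusted p = 0.144), in windows of 50 bp to each side 5.13 points (adjusted p = 0.185) and among moderate regions 10.9 points (adjusted p = 0.0573).

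Strong OCT4:SOX2 motifs were still present in some members. A score of at least 12 was reached in 42 of the 882 enhancers (4.76%) and in 35.9% of PTF-bound ones. A score of at least 15 was reached by 7 members, among them the Nr5a2 member (chr1:136957597-136957814) with 15.30. Its GATA6 motif scored 7.61, and both motifs lay in the summit window. Nr5a2 encodes a nuclear receptor of the naive pluripotency network.

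ESRRB motifs were frequent although no ESRRB peak was called. Of all 42403 regions, 15389 held one. The motif was present in 45.5% of the 882 enhancers, in 34.2% of poised and in 25% of late enhancers. The differences were 11.3 points (7.46 to 15.2, adjusted p = 6.87e-08) and 20.5 points (12 to 27.7, adjusted p = 2.09e-05). Against PTF-bound enhancers (51.2%) the share was lower by 5.71 points (-9.99 to -1.39, adjusted p = 0.0166), but within bins of width it was higher, by 2.30 points (adjusted p = 0.356), and the difference was -2.54 points in summit windows (adjusted p = 0.215) and -2.42 points for scores of at least 10 (adjusted p = 0.241). In windows of 50 bp to each side the difference from poised enhancers was 1.84 points (adjusted p = 0.182) and that from late enhancers 3.03 points (adjusted p = 0.428). The difference from late enhancers was 7.32 points in summit windows (adjusted p = 0.068). Among closed regions alone, with motifs counted anywhere in the region, the difference from poised enhancers was 5.75 points (adjusted p = 0.537).

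At the summits the ESRRB motif stood above its control. It lay in 20.2% of summit windows (17.7 to 23.0) and 12.4% of control windows (10.9 to 14.1), and in 14.9% and 11.9% of those of all regions. Within the 882 enhancers the share was 19.1% in windows with a GATA6 motif (125 of 654) and 23.2% in windows without (53 of 228), with overlapping intervals. The letters AAGGTCA, the core of the ESRRB and NR5A2 sites and part of the ESRRB matrix, were in 11.9% of summit windows (9.93 to 14.2) and 4.18% of control windows (3.32 to 5.26). The shares were 12.7% in PTF-bound, 7.91% in poised, 4.29% in late enhancers and 7.06% in all regions. Strong ESRRB motifs, scoring at least 12, were present in 15.3% of the 882 enhancers, 15.8% of PTF-bound, 8.29% of poised and 2.86% of late ones.

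The mean best ESRRB score was 9.99 in the 401 members with a motif (SD 3.97). It was 9.96 in PTF-bound enhancers, a difference of 0.03 (SE 0.25, permutation test, adjusted p = 0.907), and 9.52 in poised ones, a difference of 0.46 (SE 0.24, adjusted p = 0.0680). Late enhancers scored 8.23, a difference of 1.76 (SE 0.52, permutation test, adjusted p = 0.0166). The difference from poised enhancers passed the threshold among moderate regions alone (0.65, adjusted p = 0.0220) and without promoter summits (0.58, adjusted p = 0.0344). An intronic member of Fnbp1 (chr2:31135428-31136090) and the Ube2l6 member (chr2:84806353-84807021) shared the highest ESRRB score among the regions named here, 17.91, of a possible 18.49. In the Fnbp1 window the core AAGGTCA occurred in 2 overlapping motifs, and in the Ube2l6 region the motif lay outside the summit window.

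SOX17 motifs were rarer than in PTF-bound enhancers. That group was chosen for OCT4, SOX2 or ESRRB binding, and the part of SOX2, itself a SOX factor, in the difference was not tested. SOX17 motifs were present in 29333 of all 42403 regions. The shares were 49.2% of the 882 enhancers and 72.8% of PTF-bound ones, a difference of -23.6 points (-27.7 to -19.5, adjusted p = 2.89e-27). Poised enhancers held one in 48.3%, a difference of 0.89 points (-3.03 to 4.81, adjusted p = 0.701), which turned negative, between -3.55 and -0.30 points, in both sizes of window, for scores of at least 10 and within bins of width (none past the threshold). For late enhancers the share was 35.0%, a difference of 14.2 points (5.37 to 22.3, adjusted p = 0.00404), which was 6.44 points within bins of width (adjusted p = 0.209), 1.44 points in summit windows (adjusted p = 0.771), 3.05 points for scores of at least 10 (adjusted p = 0.5) and -1.81 points in windows of 50 bp to each side (adjusted p = 0.641). Summit windows of the 882 enhancers held a SOX17 motif in 23.6% (20.9 to 26.5) and control windows in 25.4% (23.4 to 27.5). The shares for all regions were 43.1% and 28.8%. All regions include those with SOX17 peaks, which the rule left out of the 882, so this contrast is not independent of it.

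The 4 motifs combined in different ways under the summits. In 293 of the 882 summit windows (33.2%) the GATA6 motif was the only motif of the 4, against 10.0% in PTF-bound, 35.5% in poised and 32.9% in late enhancers. GATA6 and OCT4:SOX2 motifs occurred together in 195 windows (22.1%), and in 34.6% of PTF-bound ones. None of the 4 was found in 82 windows (9.30%), against 5.34% in PTF-bound, 6.92% in poised and 22.1% in late enhancers. These combinations were not tested.

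Some short words of other factor families were also more frequent at the summits than 3 kb away, and are given as descriptions of letters on both strands. The KLF and SP words GGGTGTG and GGGCGG lay in 14.1% and 10.8% of summit windows against 4.42% and 3.82% of control windows. Their shares over all regions were 9.35% and 6.45%. The ZIC word CAGCNGG lay in 24.5% (control 13.5%), against 20.9% in PTF-bound, 27.9% in poised, 10.0% in late enhancers and 16.9% in all regions. The TEAD word GGAATG lay in 17.9% (control 11.4%) and in 18.8% of all regions, and the ETS word AGGAAG in 29.3% (control 23.8%) and 26.2%. The AP-1 word TGANTCA, in 7.71% (control 6.85%), was less frequent than in late enhancers (15.7%) and all regions (10.7%). The NF-Y word CCAAT was below its control, at 19.7% against 22.7%. Higher GC content of the windows moved with these words, at 50.3% in summit and 46.7% in control windows, and its part in them was not tested.

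GATA6 binding at these enhancers was seldom called changed after Oct4 knockdown. The authors compared GATA6 binding between Oct4 and control siRNA after 48 h of Dox, in 1 clone, and gave each region a class. Over all 42403 regions, 6.25% were called decreased and 8.57% increased. Among the 882 enhancers, 11 were decreased (1.25%, 0.70 to 2.22), 4 increased (0.45%, 0.18 to 1.16) and 867 unchanged. Both shares lie below the background of all regions, which also holds regions of the other GATA6 classes. The calls rest on GATA6 signal after 48 h of Dox, and the rule used GATA6 signal over time. The shares are thus not independent of how the regions were chosen.

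Fewer were decreased than in the Transient groups compared here, the PTF-bound and the poised enhancers. PTF-bound enhancers were decreased in 67 of 1237 (5.42%), a difference of -4.17 points (-5.68 to -2.68, adjusted p = 8.69e-07). Poised enhancers were decreased in 67 of 2111 (3.17%), a difference of -1.93 points (-2.93 to -0.75, adjusted p = 0.00432), which was -1.05 points among moderate regions alone (adjusted p = 0.164) and -4.59 points among closed ones (adjusted p = 0.449). Late enhancers showed 0 of 140, which allows a share of up to 2.14% (3 counts of the total, the limit used here for each count of 0), and the difference of 1.25 points did not pass the test (adjusted p = 0.428). Increased regions made up 0.16% of PTF-bound, 0.14% of poised and 6.43% of late enhancers. All 11 decreased members were of moderate accessibility, as were the 4 increased ones. None of the 112 accessible members was decreased, which allows up to 2.68%, and none of the 36 closed members, which allows up to 8.33%.

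The decreased members were wide and mostly held several kinds of motif. Their width ranged from 557 to 1099 bp with a median of 772 bp, against a median of 520 bp for unchanged members. A GATA6 motif was present in 10 of 11, an ESRRB motif in 10 and an OCT4:SOX2 motif in 9, against 88.2%, 45.0% and 60.1% of unchanged members. The SOX17 motif went the other way, with 4 of 11 (36.4%) against 49.3% of unchanged members. The part of width in these counts was not tested. The highest GATA6 score, 13.76, belonged to a member in an intron of Mmp9 (chr2:164942490-164943161), the gene of a matrix metalloproteinase, and to a member near Ndfip1. Further decreased members lay in an intron of Gm48913 near Trps1 (12.95, chr15:50898780-50899577), in an intron of Ube2l6 (12.63) and in an intron of Nlrc3 (10.07, chr16:3975253-3976111). Trps1 itself encodes a GATA-type repressor and Ube2l6 an enzyme that conjugates ISG15. The increased members lay in introns of Ctbp2 (GATA6 score 14.03, chr7:133090244-133090890), Macf1 (10.13, chr4:123652001-123653150) and Map4k5 (7.35, chr12:69878413-69878797) and in an annotated exon near Tmem251 (8.33, chr12:102744736-102745151). Ctbp2 encodes a transcriptional corepressor. The Ctbp2 and Macf1 motifs started 1 and 20 bp from their summits.

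The enhancers were spread over the genome and lay mostly in introns. Summits were intronic in 489 (55.4%), intergenic in 337 (38.2%) and exonic in 56 (6.35%). The nearest protein-coding start was a median of 12.1 kb away, against 19.7 kb for PTF-bound, 14.9 kb for poised, 10.0 kb for late enhancers and 22.1 kb for all regions. Chromosomes 4 and 11 held 78 and 77 members, or 8.84% and 8.73% against 5.93% and 6.42% of all regions, and the X chromosome held 10 (1.13% against 2.92%).

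A summit lay within 1 kb of an annotated transcript start in 125 of the 882 enhancers (14.2%). In PTF-bound enhancers the share was 9.78%, a difference of 4.39 points (1.60 to 7.29, adjusted p = 0.00432), which was 3.17 points among moderate regions alone (adjusted p = 0.0950). Poised enhancers stood at 16.1%, a difference of -1.93 points (-4.63 to 0.95, adjusted p = 0.243), which was -4.35 points among moderate (adjusted p = 0.0158) and 4.47 points among closed regions (adjusted p = 0.492). Within 5 kb of a start the 882 enhancers were more frequent than poised ones, by 4.27 points (adjusted p = 0.0465). Late enhancers stood at 21.4%, a difference of -7.26 points (-15.1 to -0.79, adjusted p = 0.0458), which was -2.63 points among moderate regions (adjusted p = 0.5), -6.72 points within bins of width (adjusted p = 0.0724) and 0.33 points within 5 kb (adjusted p = 1).

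GC content set the 882 enhancers apart from PTF-bound ones. The summit windows averaged 50.3% GC (SD 5.40) against 46.8%, a difference of 3.57 percentage points (SE 0.23, permutation test, adjusted p = 3.09e-05). Poised windows averaged 50.8%, a difference of -0.44 (SE 0.22, adjusted p = 0.0643), and late windows 49.7%, a difference of 0.63 (SE 0.53, adjusted p = 0.243). The difference from poised enhancers passed the threshold over whole regions (-0.71, adjusted p = 0.000243), within bins of width (-0.49, adjusted p = 0.0392), among moderate regions (-1.44, adjusted p = 0.000243) and among closed regions (-3.30, adjusted p = 0.000637). It was -0.27 in windows of 50 bp to each side and -0.28 without promoter summits (adjusted p = 0.360 and 0.254), and without promoter summits the difference from late enhancers was 1.60 (adjusted p = 0.00476).

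**Figure D4:**
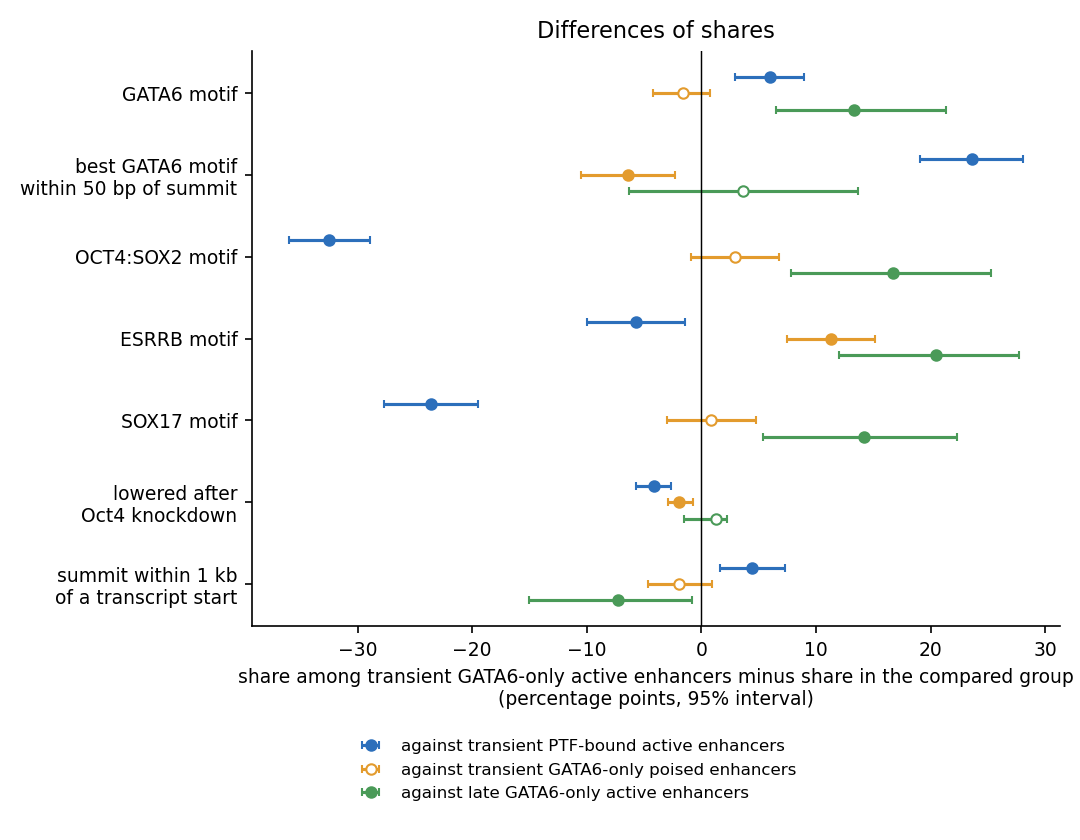
Share of a feature in the 882 enhancers minus its share in each compared group (x axis, percentage points), with 95% Newcombe intervals; filled points have an adjusted p of Fisher's exact test below 0.05. Against PTF-bound active enhancers the best GATA6 motif lies near the summit more often (23.6 points) and OCT4:SOX2 motifs are rarer (-32.5 points), and against poised enhancers ESRRB motifs are more frequent (11.3 points).

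Genes next to the enhancers were counted in 6 lists, with the start of a protein-coding transcript within 100 kb of the summit. Of 23 naive pluripotency genes, 6 had such a member, through 7 regions (0.79% of the 882, against 0.54% of all regions). Of 26 general pluripotency and epiblast genes, 9 did, through 11 regions (1.25% against 0.56%). The list of 29 FGF and ERK genes had 8 through 10 regions (1.13% against 0.54%), and the list of 37 WNT and TGF-beta genes 8 through 8 regions (0.91% against 0.78%). PrE lists lay below all regions, with 3 of 15 transcription factor genes (0.34% against 0.47%) and 4 of 33 effector genes (0.57% against 0.92%). By the count of regions whose nearest protein-coding start was that of a listed gene, the shares for general pluripotency and WNT and TGF-beta genes lay below those of all regions (0.34% against 0.45% and 0.45% against 0.61%), and those for naive pluripotency and for FGF and ERK genes above (0.57% against 0.50% and 1.02% against 0.46%). For the 2 PrE lists they were 0.11% against 0.39% and 0.57% against 0.64%. Within 100 kb of general pluripotency genes lay 0.89% of PTF-bound and 0.90% of poised enhancers, and near FGF and ERK genes 0.81% and 0.85%. No list was tested, and members near a gene were not linked to its expression here.

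Some pluripotency genes had a member close by, while most of both lists had none within 100 kb, among them Klf4 (nearest at 189 kb), Nanog (238 kb) and Sox2 (769 kb). Pou5f1, which encodes OCT4, had a closed member at 4491 bp upstream of its start (chr17:35501331-35501758) with a GATA6 score of 8.13, the motif 8 bp from the summit. The member 6052 bp inside Esrrb (chr12:86476068-86476322) had no GATA6 motif. Inside Nr5a2 a member lay 2673 bp from the start. The region nearest to Tdgf1, the gene of the Nodal co-receptor Cripto, lay 3112 bp away (chr9:110948687-110949675) and scored 12.24, and its nearest start was that of Lrrc2. Lefty2, which encodes a Nodal inhibitor, had a member at 18.7 kb (chr1:180911447-180912050), whose score of 13.84 was the highest among the members nearest to listed genes within 20 kb. The epiblast gene Pou3f1 had a member 10.0 kb upstream (chr4:124646527-124647027, score 8.00).

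Several genes of signalling pathways had a member nearby. Spry2, an antagonist of receptor tyrosine kinases, had a closed member at 11.6 kb (chr14:105884981-105885372, score 8.72), and Spry4 had 3 members within 100 kb, the nearest at 23.8 kb. The Spred3 member lay 5894 bp inside its gene. Id3, a target of BMP signalling that encodes an inhibitor of basic helix-loop-helix factors, had a member at 16.5 kb (chr4:136159713-136160187, score 7.94). Fzd2, a WNT receptor gene, had one at 19.6 kb (chr11:102623663-102624483, score 11.78). Of the basement membrane genes that PrE expresses, Hspg2 had a member at 7370 bp (chr4:137461288-137461568) and Nid2 one at 3981 bp (chr14:19755049-19755347), and both lacked a GATA6 motif.

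Some members lay in groups. Another member was present within 50 kb of 210 of the 882 enhancers (23.8%), and the median distance to the nearest was 253 kb. The largest group held 4 members in 48.6 kb of Fnbp1, the gene of a membrane-bending protein that binds formins. Their GATA6 scores were 6.66 (chr2:31087516-31088177), 11.54 (chr2:31094171-31095477), 7.14 (chr2:31122593-31122906) and 9.15 (chr2:31135428-31136090), and all 4 were moderate and unchanged after Oct4 knockdown. Counted by the nearest start, Fnbp1 and Mkrn1 had 4 members each, of 12 and 13 GATA6 regions. Myc had 3 of 37, Rbpj 3 of 19 and Tgif1, which encodes a corepressor of TGF-beta signalling, 3 of 22.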

How the data were processed

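According to the study's methods, the authors aligned reads with bowtie2 to mm10, merged replicates to call peaks with MACS2 and required each peak in every replicate. The deposited table holds 42403 GATA6 regions and 105 columns, of which 34 were used. The Transient, PTF, SOX17, accessibility, histone state and Oct4 knockdown classes and the motif scores are the authors' own; the deposited score is the log-odds score of FIMO for the best JASPAR match in a region, with no normalization. Regions without a match have no score. The Oct4 knockdown class came from the authors' DESeq2 run (FDR below 0.1, absolute log2 fold change above 0.5). A further 59 columns of signal match no library of the series and 12 group the motif values, and none of these was used.

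Coordinates were checked as 1-based GRCm38 positions, since every full-length motif sequence had 1 score. The 4 scoring matrices were recovered from the deposited scores by least squares, and rescanning the regions, with motifs allowed to cross their edges, returned the deposited presence and best score in 100% of regions. The matrices were then used on windows of 100 bp or 50 bp to each side of the summit, and on control windows of the larger size, 3 kb upstream and downstream of it and outside all GATA6 regions. Summits were annotated with GENCODE M21, and sequences were read from the RefSeq copy of GRCm38.

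Shares were compared by two-sided Fisher's exact tests with 95% Newcombe intervals, and means by permuting the group labels 100000 times (10000 in the alternatives), two-sided. Benjamini-Hochberg adjustment covered the 34 p-values jointly. Intervals cover counting error among regions only. The tests were tried on simulated data. The members, comparisons, words and gene lists were chosen with earlier results of these data known. Named regions were the 5 with the highest GATA6 score, the 5 with the most motifs, the 3 widest without a motif, up to 5 decreased and 5 increased after Oct4 knockdown, the member nearest to each listed gene within 20 kb, the largest group within 50 kb, and 2 members per accessibility class with the motif nearest to the summit. Other genes were named for their count of members. Versions were matplotlib 3.10.9, pysam 0.24.0, statsmodels 0.14.6, scipy 1.17.1, pandas 2.3.3 and numpy 2.4.6 under Python 3.11.15.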

Additional observations from a re-analysis of the deposited data

How the results depend on the processing

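Of 34 tested differences, 23 passed the threshold, and 11 kept direction and call under every alternative run for them. Of 186 alternative values, 27 lost and 14 gained the threshold without a change of direction, 18 reversed (14 of them past the threshold neither before nor after) and the others kept direction and call. The differences below are the 882 enhancers minus the named group, in percentage points for shares, and where no cause is given the cause was not tested. In windows of 100 bp to each side, the GATA6 share differed from poised enhancers by -7.33, the ESRRB share from PTF-bound by -2.54 and from late by 7.32, the SOX17 share from late by 1.44 and the mean OCT4:SOX2 score from late by 0.77. In windows of 50 bp to each side, the GATA6 share differed from poised by -6.91, the OCT4:SOX2 share from late by 5.13, the ESRRB share from PTF-bound by -0.35, from poised by 1.84 and from late by 3.03, the SOX17 share from late by -1.81 (reversed) and the mean OCT4:SOX2 score from poised by -0.61. Counting only scores of at least 10, the GATA6 share differed from poised by -11.0, the ESRRB share from PTF-bound by -2.42 and the SOX17 share from late by 3.05. With the mean of all motifs, the OCT4:SOX2 score differed from late by 0.37. Within 5 bins of width, the GATA6 share differed from poised by -4.90 and from late by 5.71, the share within 50 bp of the summit from poised by -3.44, the OCT4:SOX2 share from late by 7.50, the ESRRB share from PTF-bound by 2.30 (reversed), the SOX17 share from late by 6.44, the promoter share from late by -6.72 and GC content from poised by -0.49. In moderate regions alone, with fewer regions, the GATA6 share differed from PTF-bound by 0.84, the GATA6 score from poised by -0.21, the OCT4:SOX2 share from poised by 5.26 and from late by 10.9, the ESRRB score from poised by 0.65, the decreased share from poised by -1.05, the promoter share from PTF-bound by 3.17, from poised by -4.35 and from late by -2.63, and GC content from poised by -1.44. In closed regions alone, of which 36 are members, the differences from poised were -0.36 in GATA6 score, -1.55 in the share within 50 bp of the summit, 5.75 in ESRRB share, -4.59 in decreased share and -3.30 in GC content. Reversals below the threshold were, against poised enhancers, 1.46 (moderate) and 2.10 (closed) in the GATA6 share, -3.31 (100 bp), -3.25 (50 bp), -3.27 (closed) and -1.86 (width bins) in the OCT4:SOX2 share, -2.00 (100 bp), -0.84 (50 bp), -0.30 (scores of at least 10) and -3.55 (width bins) in the SOX17 share, 0.090 (moderate) in OCT4:SOX2 score and 4.47 (closed) in promoter share, and against late enhancers -3.22 within 100 bp and -2.06 within 25 bp of the summit in the share with a near motif. With starts within 5 kb, the share differed from poised by 4.27 and from late by 0.33, both reversed. Over whole regions GC content differed from poised by -0.71. Without promoter summits the ESRRB score differed from poised by 0.58 and GC content from late by 1.60. Among the members, the GATA6 score of moderate minus closed regions was -0.53.

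In 26 cases an alternative was not run because a group had under 20 regions, as for closed PTF-bound or late enhancers. No paired analysis was possible because no library, and so no replicate number, has a value in the columns used. The depth of the libraries behind the classes is unknown here. Motif presence depends on region width and on the score cut-off, classes come from cut-offs not all stated in the sources used here, and regions near each other are not independent.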

Other observations

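The remaining short words gave the following shares of summit windows in the 882 enhancers, with their control windows and the summit windows of all regions. The SOX words ACAAAG and ACAATG lay in 19.6% and 8.28% (controls 15.9% and 9.70%, all regions 29% and 23.0%). All regions include those with SOX17 or SOX2 peaks, so their contrast with the 882 is not independent of the rule. The CTCF core AGGGGGC lay in 5.33% (control 2.30%, all regions 2.75%) and the GRHL and TFCP2L1 word CCGGTT in 2.72% (control 1.76%, all regions 1.92%). The E-box CACGTG lay in 3.74% (control 2.79%, all regions 2.64%). The STAT word TTCCNGGAA lay in 1.02% (control 0.42%, all regions 1.15%). The ETS word CCGGAAGT, the CRE word TGACGTCA and the NRF1 core GCGCATGCG lay in 5, 1 and 1 of the 882 windows. These are descriptions of letters and no test was made.

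CpG dinucleotides averaged 2.95 per summit window in the 882 enhancers (SD 2.20), 2.15 in PTF-bound, 3.51 in poised and 3.56 in late enhancers, against 2.49 in all regions. At least 50% of the window was marked as repeat in 79 members (8.96%). Of the genes with 3 nearest members, Cldn14 had 3 of 5 GATA6 regions, Nova2 3 of 4, Platr17 3 of 4 and Casz1, which encodes a zinc finger transcription factor, 3 of 12.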
